A study of Mus musculus with 2 samples.

Results

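Lysosomal cathepsins are the 8 genes Ctsa, Ctsb, Ctsc, Ctsd, Ctsh, Ctsl, Ctss and Ctsz, taken by symbol from a table of 32286 features. All 8 symbols were found, each annotated as protein-coding. Each gene was measured in 16 classes of mouse bone marrow cells, 1 of them an unnamed cluster and the others named from marker genes, in 2 single-cell libraries. A level is the gene's unique molecular identifiers (UMIs, 1 per captured transcript) divided by all UMIs of the class and scaled to 1000000 (CPM). Because the kit counts 1 tag at the 3′ end of a transcript, CPM is not scaled by gene length, and levels are compared within a gene unless a share of UMIs is named.

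Cathepsins are proteases of the lysosome, the acidic compartment in which cells break down proteins taken up from outside or from their own cytoplasm. They are made as inactive precursors, carried to the lysosome by sorting receptors, switched on by the low pH that the V-ATPase proton pump maintains, and held in check by cystatins and stefins. In marrow they are best known from phagocytes, where they digest cargo, cut antigens for display on MHC class II molecules and activate the serine proteases of granules.

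The series asked how gene expression in marrow hematopoietic cells differs once MYC is overexpressed in stem cells. The control library had the genotype Mx1Cre+/-;Rosa26+/+ and the other, called the MYC library, Mx1Cre+/-;Rosa26LSL-MYC/LSL-MYC. Both therefore carry Mx1-Cre, a recombinase under an interferon-inducible promoter that is active in blood-forming cells and elsewhere, and in the MYC library both Rosa26 alleles hold MYC silenced by a floxed stop (LSL), which recombination deletes. The labels used here give no age, no number of animals and no statement on how Cre was induced. There was 1 library per group, so differences between the libraries cannot be told apart from differences between the mice, the preparations or the sequencing runs, and no test was possible.

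The filters left 14903 control cells (median 5343 UMIs) and 12540 MYC cells (median 6016 UMIs). A feature named MYC counted 0 UMIs in control cells and 289 in the MYC library. The libraries shared 97 barcodes. Free RNA was not corrected. C1qa, a complement gene of macrophages, ranged in the 13 named classes that were compared from 0.368 to 5.32 CPM in the control and from 1.39 to 19.9 CPM in the MYC library, and it was higher in the MYC library in all of them but nonclassical monocytes. Unnamed cluster 8, barcodes with few UMIs (medians 746 and 801), held 22.2 and 82.8 CPM of C1qa, and its cathepsin levels are given as a measure of what low-content droplets held.

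The 8 genes lie on 6 chromosomes of GRCm38 (GENCODE vM21). Ctsd (chr7:142375911-142388038, minus strand) and Ctsc (chr7:88278085-88310888, plus strand) are on chromosome 7, and Ctsa (chr2:164832873-164841032, plus strand) and Ctsz (chr2:174427493-174439039, minus strand) on chromosome 2. Ctsb (chr14:63122462-63145923, plus strand), Ctsh (chr9:90054152-90076089, plus strand), Ctsl (chr13:64359337-64370890, minus strand) and Ctss (chr3:95526786-95556403, plus strand) have a chromosome each to themselves.

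The stretches before their start sites are shown because the members differ in which cells express them. RefSeq promoter entries of GRCm38.p6 were at hand for 6 of the 8 members, Ctsb and Ctsh having none, and the 250 bases before each start were searched on both strands for 4 letter strings. These were CACGTG (the E-box that MYC and the lysosomal regulators TFEB and TFE3 can bind), TCACGTGA (the core of the lysosomal CLEAR element, which contains the E-box), the interferon-stimulated response element (a pair of GAAA repeats with any 2 bases between them) and GAGGAAGT (a PU.1-type site of myeloid genes). Of 32851 promoters in the table, 6.02% held the first, 0.785% the second, 2.98% the third and 2.44% the fourth. TCACGTGA was found before Ctsd and before 1 of the 2 Ctsa starts, and Ctsd held a further CACGTG. These sites are printed 5′ to 3′ on the gene's strand with the matched letters in capitals, for Ctsa at chr2:164833750-164833772, and for Ctsd at chr7:142387909-142387936 and at chr7:142388056-142388077:
Ctsa: gagcaaactgTCACGTGAtgcag
Ctsd, near site: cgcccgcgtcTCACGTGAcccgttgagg
Ctsd, far site: tccccCACGTGacctgtatcca

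Ctss held GAAACCGAAA from 21 to 12 bases before its start, and Ctsc a GAGGAAGT on the opposite strand, read as ACTTCCTC, from 151 to 144 bases before its start. Both windows are shown whole because these members differed most between monocytes and granulocyte progenitors. The Ctss window is chr3:95526536-95526785 and the Ctsc window chr7:88277835-88278084, both on the plus strand, and capitals mark the matches:
Ctss: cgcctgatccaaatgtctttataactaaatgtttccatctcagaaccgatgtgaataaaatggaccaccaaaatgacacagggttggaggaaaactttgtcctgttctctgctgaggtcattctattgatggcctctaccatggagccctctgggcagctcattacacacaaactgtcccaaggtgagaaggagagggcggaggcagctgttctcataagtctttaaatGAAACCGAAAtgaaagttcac
Ctsc: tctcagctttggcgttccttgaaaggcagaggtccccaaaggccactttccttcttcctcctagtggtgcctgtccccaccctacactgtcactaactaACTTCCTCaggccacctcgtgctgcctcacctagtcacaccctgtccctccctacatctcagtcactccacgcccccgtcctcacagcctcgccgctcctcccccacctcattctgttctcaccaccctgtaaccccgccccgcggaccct
The Ctsl window held 1 CACGTG. Since RefSeq and GENCODE place starts differently, this match, the Ctsa site and the near site of Ctsd all lie inside the GENCODE spans of their genes, and the far site of Ctsd lies outside. The Ctsz window and the other Ctsa window held none of the 4 strings, which says only that these letters are not there.

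**Figure D1:**
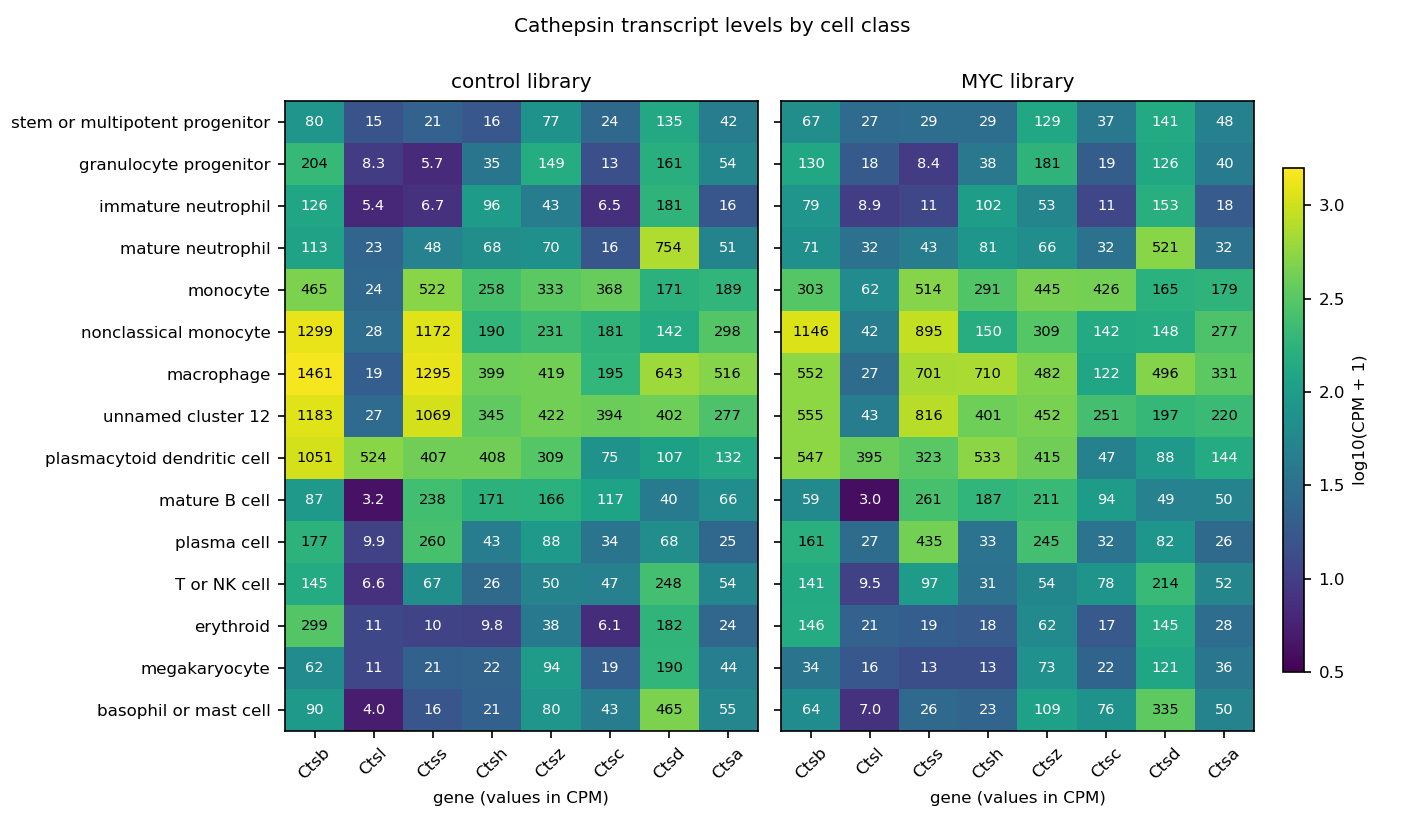
Levels of the 8 cathepsins (columns) in 15 cell classes (rows) of the control library (left) and the MYC library (right), in CPM, with color on a log10(CPM + 1) scale. Mononuclear phagocytes hold the brightest rows, Ctsd is brightest in mature neutrophils at 754 and 521 CPM, and Ctsl stands out in plasmacytoid dendritic cells at 524 and 395 CPM.

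Among the cysteine endopeptidases, Ctsb, a broadly expressed protease that also trims peptides from their ends, was highest, among classes of at least 50 cells, in nonclassical monocytes, the patrolling blood monocytes, at 1299 CPM (control) and 1146 CPM (MYC). In the control it was followed by unnamed cluster 12, a mixed cluster with Mrc1, H2-Eb1 and H2-Ab1 as leading genes, at 1183 CPM, and by plasmacytoid dendritic cells, which make interferon, at 1051 CPM. The counting intervals of the first and the second overlapped. Ctsb was also a transcript of erythroid cells in the control, at 299 CPM, above granulocyte progenitors at 204 CPM.

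Ctsl, an endopeptidase related to Ctsb, was concentrated in 1 named class. Plasmacytoid dendritic cells held 524 CPM in the control (95% counting interval 497 to 552) and 395 CPM in the MYC library (353 to 441). In monocytes the level was 24.3 and 62.0 CPM, so that plasmacytoid dendritic cells exceeded them 21.6-fold (19.4 to 24) in the control and 6.37-fold (5.63 to 7.19) in the MYC library. After each cell was thinned to 2000 UMIs, 58.8% of control plasmacytoid dendritic cells (52.8 to 64.6) and 48.6% of those in the MYC library (36.9 to 60.6) had a Ctsl UMI, beside 0.733% and 0.840% of mature B cells. Unthinned, the shares were 83.0% and 81.1%, beside 1.75% and 1.41% of mature B cells. Plasmacytoid dendritic cells had medians of 8825 and 9293.5 UMIs and mature B cells of 4488 and 4737.5.

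Ctss, which trims the invariant chain from MHC class II and works at neutral pH, was highest, again among classes of at least 50 cells, in nonclassical monocytes at 1172 and 895 CPM and in cluster 12 at 1069 and 816 CPM. The intervals of these neighbors overlapped in both libraries. Monocytes held 522 and 514 CPM, whereas granulocyte progenitors held 5.69 and 8.38 CPM and immature neutrophils 6.74 and 11 CPM. Thinned to 2000 UMIs, 64.2% and 62.4% of monocytes had a Ctss UMI, against 0.554% and 1.07% of granulocyte progenitors. Unthinned these shares were 94.1% and 95.4%, against 6.57% and 10.1%. The thinning left out 16 and 24 monocytes and 6 and 7 granulocyte progenitors, whose median UMIs were 11554 and 13641 for monocytes and 19309.5 and 19033 for the progenitors.

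The exopeptidases were phagocyte genes as well. Ctsh, an aminopeptidase, was highest in plasmacytoid dendritic cells among control classes of at least 50 cells, at 408 CPM, and in the C1q-rich macrophages of the MYC library, at 710 CPM. Its levels were lower in immature neutrophils, at 96.2 and 102 CPM, and in mature neutrophils, at 67.8 and 81.1 CPM. Within the B lineage Ctsh was 11.9-fold (8.90 to 16.2) higher in mature B cells than in B progenitors of the control. Ctsz, a carboxypeptidase, was near even over mononuclear phagocytes, at 231 to 422 CPM in the control classes of at least 50 cells, and reached 149 and 181 CPM in granulocyte progenitors. Ctsc, a dipeptidyl peptidase that activates the serine proteases of granules, was high in monocytes at 368 and 426 CPM but only 13.4 and 18.9 CPM in granulocyte progenitors.

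The 2 members that are not cysteine proteases behaved differently from each other. Ctsd, an aspartic endopeptidase, was the only one of the 8 whose highest class was mature neutrophils, at 754 CPM (737 to 772) for control cells and 521 CPM (507 to 535) for MYC cells, followed in the control by basophils or mast cells at 465 CPM. In the MYC library the C1q-rich macrophages, at 496 CPM, overlapped with mature neutrophils. Thinned to 2000 UMIs, 74.0% and 64.5% of mature neutrophils had a Ctsd UMI, against 7.33% and 7.56% of mature B cells. Unthinned the shares were 87.3% and 86.6%, against 15.9% and 21.8%. Ctsa, a serine carboxypeptidase that shields the lysosomal enzymes beta-galactosidase and neuraminidase, followed the mononuclear phagocytes, at 298 and 277 CPM in nonclassical monocytes and 189 and 179 CPM in monocytes.

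**Figure D2:**
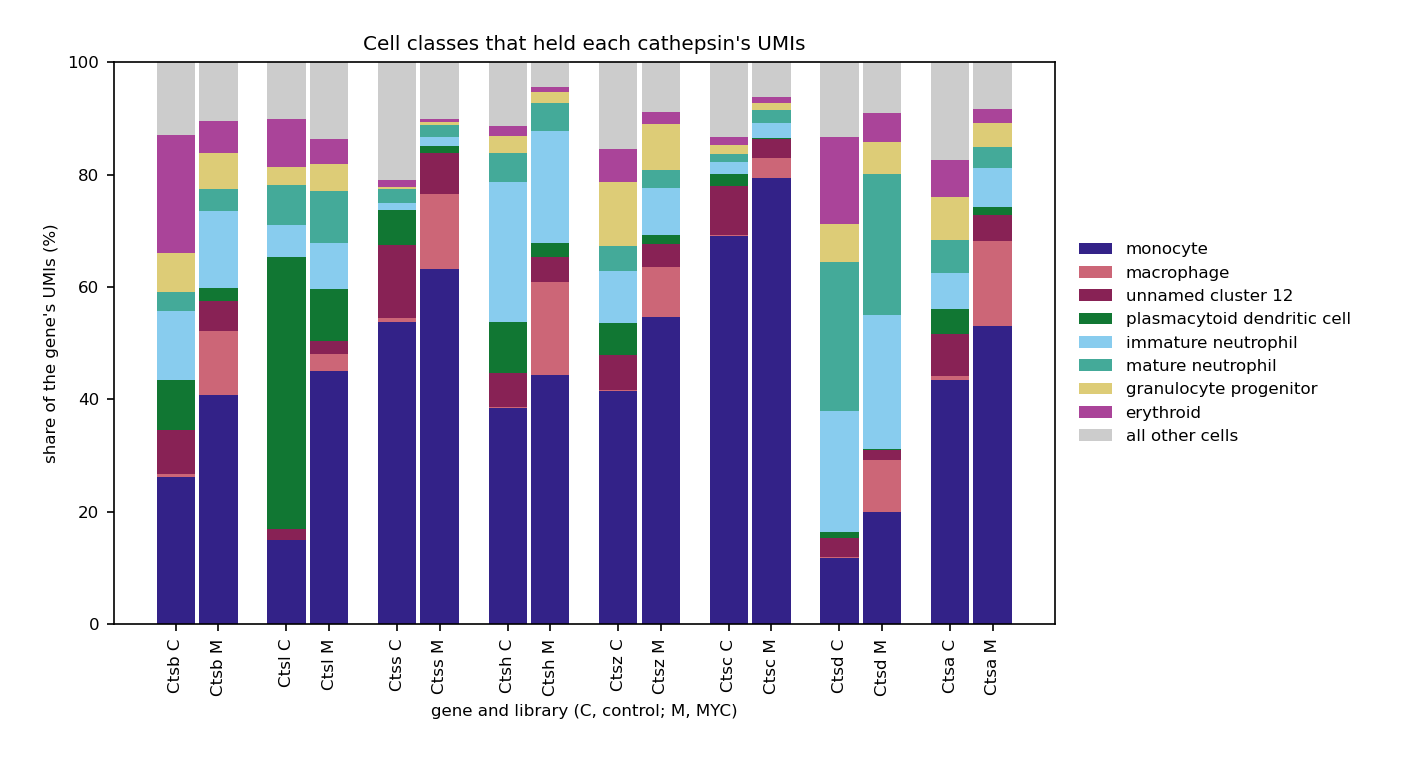
Share of each cathepsin's UMIs (percent, bars from 0) held by 8 cell classes and by all other kept cells, in the control (C) and MYC (M) libraries. Monocytes held 69.1% and 79.4% of Ctsc, and the plasmacytoid share of Ctsl was 48.3% (control) and 9.20% (MYC).

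Which cells held a gene's transcripts depended on numbers of cells as well as levels. Monocytes were 8.49% of kept control cells and 12.7% of those in the MYC library, and held 53.8% and 63.3% of all Ctss UMIs and 69.1% and 79.4% of all Ctsc UMIs. Macrophages were 0.127% and 5.06% of kept cells and in the MYC library held 16.5% of Ctsh, 15% of Ctsa and 13.2% of Ctss UMIs. Erythroid cells were 9.84% and 4.63% of kept cells and held 20.9% (control) and 5.77% (MYC) of Ctsb UMIs. Plasmacytoid dendritic cells were 1.89% and 0.590% of kept cells, and their share of Ctsl UMIs was 48.3% (46.5 to 50.1) and 9.20% (8.26 to 10.2), while monocytes held 15% and 45.1%. Over all kept cells Ctsc, Ctsh and Ctsz were 1.66-, 1.61- and 1.67-fold higher in the MYC library, and Ctsb was at 0.696 of its control level (264 and 183 CPM).

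**Figure D3:**
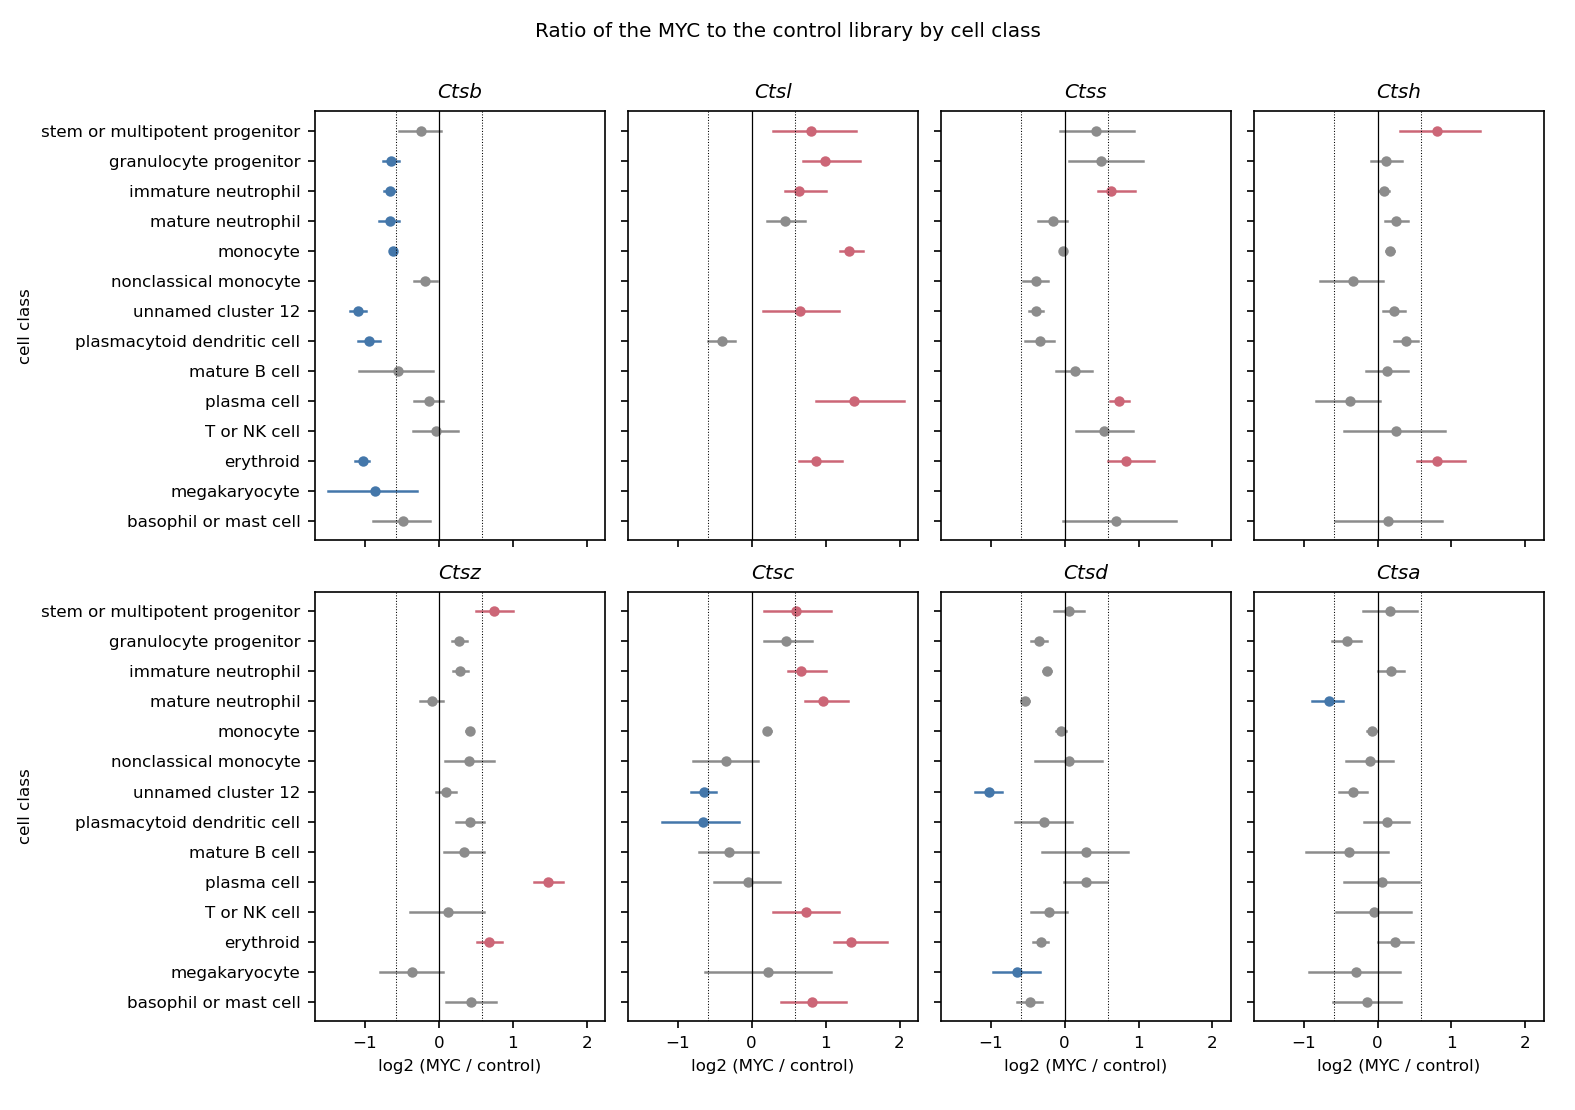
Log2 ratio of the MYC to the control library (points) with 95% counting intervals (lines) for each cathepsin (panels) in 14 cell classes (rows). Dotted lines are at 1.5-fold; red is called higher, blue called lower, gray not called, and rows with under 50 UMIs are empty. Every Ctsb point lies left of 0, and all Ctsl points but that of plasmacytoid dendritic cells lie right of it.

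Within classes, Ctsb was lower and Ctsl higher in most of the MYC library. A gene was called where its ratio, with 1 CPM added to both levels, was past 1.5-fold and its counting interval excluded no difference, among genes with 50 or more UMIs, and only classes of 50 or more cells on each side were compared. Ctsb was called lower in 8 of 14 classes and higher in none, and Ctsl was called higher in 7 of the 9 classes with enough UMIs. Over all genes tested in these 14 classes, 4.59% to 15.8% were called higher and 9% to 21.6% lower, and the median log2 ratio of all genes was -0.29 to -0.04.

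The classes with lower Ctsb included some where the gene is abundant. Monocytes held 465 CPM (455 to 475) in control cells and 303 CPM (296 to 310) in MYC cells, a log2 ratio of -0.62 (-0.66 to -0.57). Plasmacytoid dendritic cells held 1051 and 547 CPM (log2 -0.94), cluster 12 held 1183 and 555 CPM (log2 -1.09), and erythroid cells held 299 and 146 CPM (log2 -1.03). All 14 log2 ratios of Ctsb were below 0, from -1.09 to -0.04, and 11 of the 14 intervals lay below 0. The share of monocytes with a Ctsb UMI at 2000 UMIs was 62.5% (59.8 to 65.2) and 46.9% (44.4 to 49.4), beside 17.2% and 10.9% of mature B cells. Unthinned it was 97.9% and 94.5%, beside 32.0% and 21.1%. Nonclassical monocytes differed less, at 1299 and 1146 CPM (log2 -0.18, -0.33 to -0.03), and low-content cluster 8 held 330 and 247 CPM. Of the classes called lower, monocytes, plasmacytoid dendritic cells and cluster 12 were above cluster 8 in both libraries. Erythroid cells, granulocyte progenitors, immature and mature neutrophils and megakaryocytes were below it in both. The part of free RNA in these lower-level classes was not tested. When the libraries were scaled within each class by the median of gene ratios, which takes out the shift of all genes, all 13 named-class ratios of Ctsb stayed below 0, but 3 rather than 7 were called.

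Ctsl was highest above the control in plasma cells and monocytes. In monocytes it rested on 441 control UMIs and 1558 UMIs of the MYC library, with levels of 24.3 CPM (22.1 to 26.7) and 62.0 CPM (59.0 to 65.2) and a log2 ratio of 1.32 (1.2 to 1.51). The intervals of the levels did not overlap. The share of monocytes with a Ctsl UMI at 2000 UMIs was 5.2% (4.04 to 6.59) and 11% (9.52 to 12.7), and 26.7% and 54.1% unthinned. Granulocyte progenitors held 8.30 and 17.5 CPM (log2 0.99), and plasma cells 9.87 and 27.3 CPM from 50 and 48 UMIs (log2 1.38, 0.86 to 2.07). Cluster 8 held 17.2 and 37.7 CPM of Ctsl (log2 1.09), from 38 and 88 UMIs; monocytes of the MYC library were above that level and the other classes called higher were not, except cluster 12 at 42.7 CPM. Whether free RNA contributed to the lower-level classes was not tested. Plasmacytoid dendritic cells, the named class with the highest Ctsl, went the other way (log2 -0.41, -0.59 to -0.23), short of 1.5-fold. It was past 1.5-fold lower under 3 alternatives, at -0.66 with median-of-ratios scaling, -0.67 without the 20 most abundant genes in the total and -3.20 with each library clustered on its own. With separate clustering the plasmacytoid ratios of Ctsb, Ctss, Ctsh and Ctsc were -2.63, -1.33, -1.21 and 1.58. Whether that setting gave the name to the same cells was not tested, so no weight is put on its -3.20.

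Of the other members, Ctsz was above its control level in 12 of 14 classes, with a log2 ratio of 0.42 (0.37 to 0.46) in monocytes from 333 to 445 CPM, and was called higher in stem or multipotent progenitors (76.6 and 129 CPM), plasma cells (87.9 and 245 CPM) and erythroid cells (38.2 and 61.6 CPM). Ctss was called higher in 3 classes and lower in none. In monocytes its levels overlapped (522 and 514 CPM, log2 -0.02), and it was lower by less than 1.5-fold in nonclassical monocytes, cluster 12 and plasmacytoid dendritic cells, with log2 ratios of -0.39, -0.39 and -0.33. Ctsh was called higher in stem or multipotent progenitors (16.0 and 28.7 CPM) and in erythroid cells (9.82 and 17.8 CPM), and its log2 ratio in monocytes was 0.17. The part of free RNA in the low-level calls of these 3 genes was not tested, nor that of differences in the make-up of the classes.

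Ctsc was called higher in 6 classes and lower in 2. The 6 were low-level classes: stem or multipotent progenitors (24 and 36.8 CPM), immature neutrophils (6.46 and 10.8), mature neutrophils (15.7 and 31.7), T or NK cells (46.8 and 78.2), erythroid cells (6.13 and 17) and basophils or mast cells (42.5 and 75.8). Cluster 8 held 71.2 and 146 CPM of Ctsc, and erythroid cells held 1.47 and 9.59 CPM of C1qa beside their Ctsc. The part of free RNA in these 6 differences was not tested. Thinned to 2000 UMIs, 0.917% (0.475 to 1.60) and 2.86% (1.49 to 4.95) of erythroid cells had a Ctsc UMI, beside 1.32% (0.968 to 1.76) and 2.58% (2.05 to 3.19) of immature neutrophils, and the unthinned shares were 6.41% and 12.9%, beside 5.15% and 9.37%. Shares this low and alike in unrelated classes do not show expression. Where Ctsc is abundant, in monocytes, its log2 ratio was 0.21 (0.17 to 0.26), and in cluster 12 it was called lower, at 394 and 251 CPM.

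Of the serine proteases that Ctsc activates, Elane, Prtn3 and Ctsg were counted with 4 others on a list. In granulocyte progenitors 1 of the 4 tested, Ctsg, was called higher and none lower, and in mature neutrophils and immature neutrophils the counts higher were 1 and 2 of 4. The shares of all genes called higher in these 3 classes were 4.59%, 7.28% and 6.26%. Elsewhere the list went both ways. In plasmacytoid dendritic cells and in plasma cells 3 of 3 were called lower, and in erythroid cells 2 of 4. The shares of all genes called lower there were 14.4%, 14.2% and 12.4%. In stem or multipotent progenitors 3 of 4 were called higher and 0 lower, and in mature B cells 2 of 4 and 0. The shares of all genes called higher in these 2 classes were 7.36% and 5.28%. Ctsg, a serine protease in spite of its name, was 368 and 1334 CPM in stem or multipotent progenitors (log2 1.86, 1.76 to 1.96) and 1491 and 3528 CPM in basophils or mast cells (log2 1.24). In stem or multipotent progenitors the markers of that class summed to 2639 and 1901 CPM. Granulocyte progenitor markers, which include Ctsg, summed to 3754 and 5606 CPM there, and eosinophil markers to 317 and 1736 CPM. How far a difference in make-up moved the values of this class, its cathepsins included, was not tested. Elane, the neutrophil elastase gene, was lower in classes not known to make it: 264 and 18.2 CPM in plasma cells, and 123 and 26.6 CPM in erythroid cells.

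Calls were few for Ctsd and Ctsa as well. Ctsd was called lower in cluster 12 (402 and 197 CPM) and megakaryocytes (190 and 121 CPM) and in none higher; in mature neutrophils it was 754 and 521 CPM, a log2 ratio of -0.53 (-0.59 to -0.48) that missed 1.5-fold although the intervals of the levels did not overlap. Ctsa was called lower in mature neutrophils (50.9 and 31.9 CPM, log2 -0.66) and in no other class.

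By class, the share of members called is to be read against that of all genes. In monocytes 1 of 8 members was called higher and 1 lower, beside 6.25% and 13.2% of all genes; in granulocyte progenitors also 1 and 1, beside 4.59% and 21.3%. Immature neutrophils had 3 higher and 1 lower of 8, beside 6.26% and 13%, and mature neutrophils 1 and 2, beside 7.28% and 21.6%. Erythroid cells had 5 higher and 1 lower of 8, beside 11.7% and 12.4%, and stem or multipotent progenitors 4 and 0, beside 7.36% and 10.9%. Plasma cells had 3 and 0 of 8, beside 14.5% and 14.2%, plasmacytoid dendritic cells 0 and 2, beside 15.8% and 14.4%, and cluster 12 had 1 and 3, beside 14.6% and 15.3%. Megakaryocytes had 0 higher and 2 lower of 5, beside 5.31% and 18%. T or NK cells and basophils or mast cells had 1 higher and 0 lower of 7 each, beside 8.4% and 9%, and 7.79% and 17.6%. In nonclassical monocytes and mature B cells none of 7 members was called, beside 11.1% and 12.4%, and 5.28% and 18.2%. Most members in monocytes, granulocyte progenitors and mature B cells were therefore within 1.5-fold of the control.

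**Figure D4:**
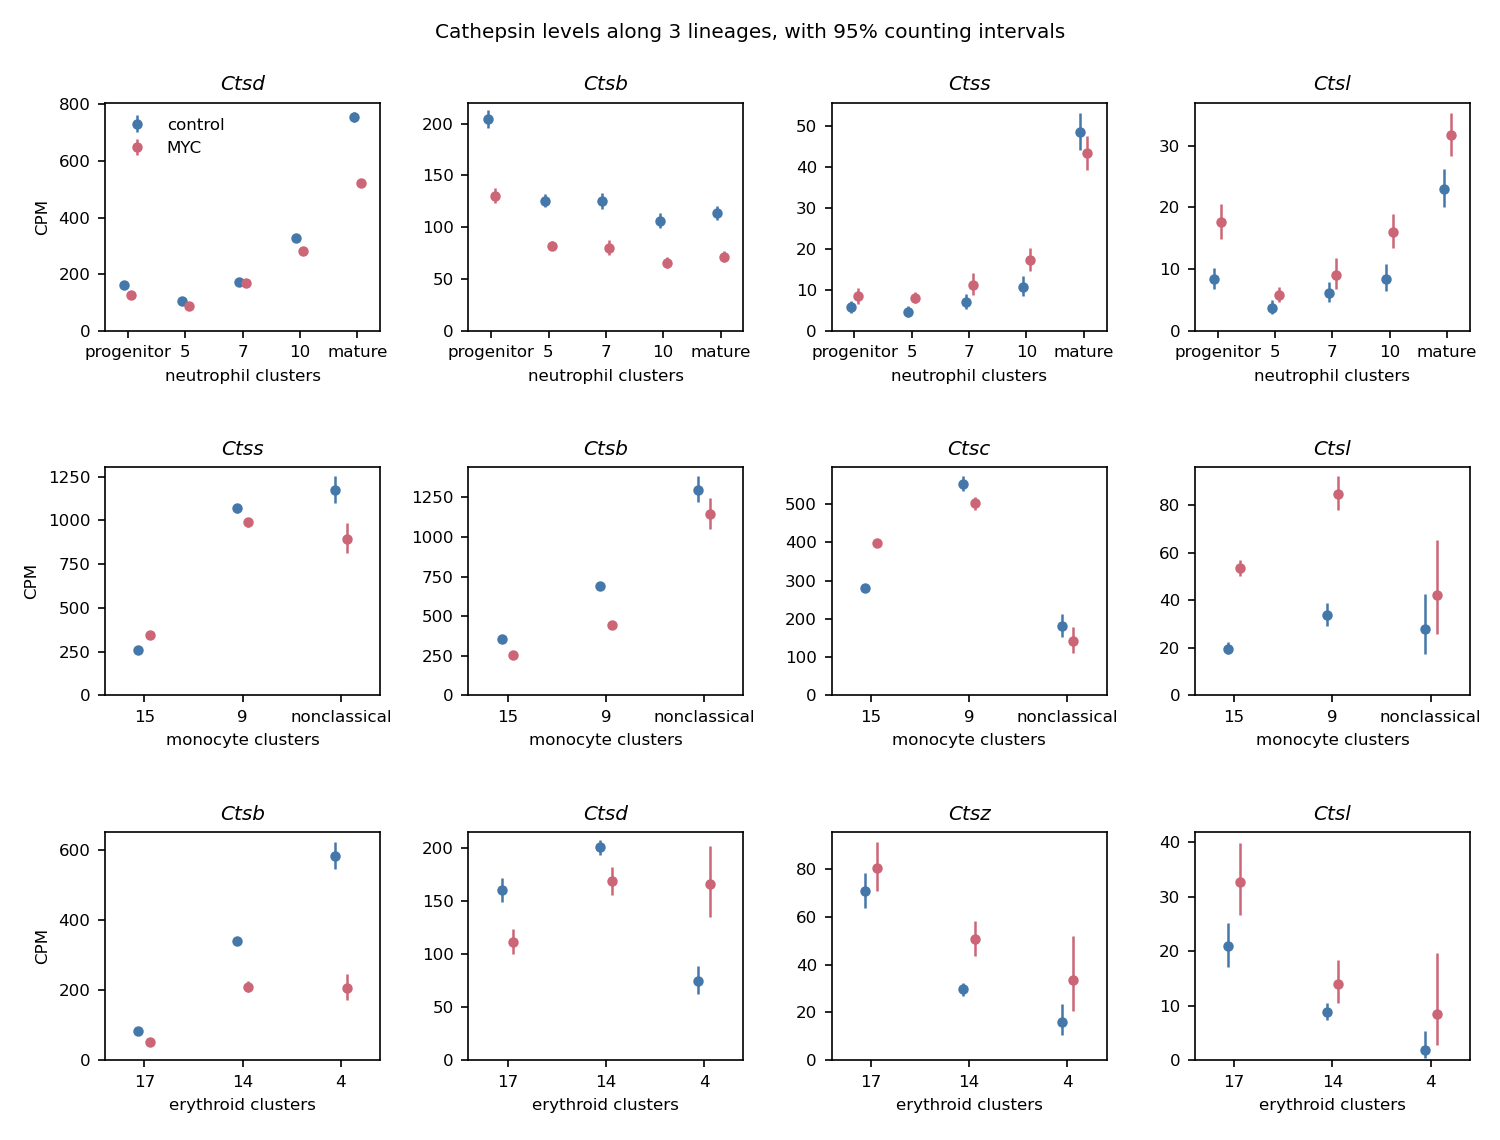
Levels in CPM (linear axes from 0) of 4 cathepsins along neutrophil, monocyte and erythroid clusters (rows of panels), control in blue and MYC library in red, with 95% counting intervals. Ctsd climbs toward mature neutrophils in both libraries, and Ctsb climbs toward erythroid cluster 4 in the control (82.0, 341 and 584 CPM) but levels off in the MYC library (53.2, 210 and 207 CPM).

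Along the neutrophil lineage the members differed in the stage at which they were highest. Ctsd was 181 CPM in immature and 754 CPM in mature control neutrophils, a 4.17-fold difference (4.03 to 4.32), and 153 and 521 CPM in the MYC library, 3.40-fold (3.27 to 3.54). Ctss was 7.19-fold (6.10 to 8.51) higher in mature than immature control neutrophils and 3.93-fold (3.41 to 4.54) in the MYC library, and Ctsl 4.24-fold and 3.54-fold. Ctsb and Ctsz were highest in granulocyte progenitors, with Ctsz at 149 CPM there, 43.1 CPM in immature and 70.1 CPM in mature cells of the control. Ctsa was 53.5 CPM in control progenitors, 15.9 CPM in immature and 50.9 CPM in mature cells. Ctsh was lower in mature than in immature cells, at 0.705 and 0.795 of their level.

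Mature neutrophils of the libraries lay in different clusters. Cluster 0, led by Il1b and Jaml, held 2175 control cells and 197 cells of the MYC library, cluster 2, led by Cxcl2 and Cstdc4, held 165 and 1813, and cluster 1, led by interferon-response genes, 256 and 50. Ctsb was 114 and 124 CPM in cluster 0 (log2 0.12, -0.21 to 0.43) and 101 and 66.2 CPM in cluster 2 (log2 -0.60, -0.98 to -0.22). The Ctsb difference of the class was thus not seen in cluster 0. Ctsd was lower in the MYC library in all 3 clusters, at 769 and 583 CPM, 606 and 519 CPM, and, in cluster 1, 738 and 432 CPM. Ctsa in cluster 0 was 51.7 and 46.7 CPM and in cluster 2 it was 17.1 and 30.4 CPM, and in cluster 1 it was 67.6 and 39.6 CPM (log2 -0.76, -1.85 to 0.16), so Ctsa was called lower in none of the 3.

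Monocytes fell into cluster 15, with 643 control and 958 MYC cells, and cluster 9, with 622 and 634. Ctss was 261 CPM in cluster 15, led by Nrg1 and Ass1, and 1068 CPM in cluster 9, led by Vcan and Fn1, a 4.09-fold difference (3.92 to 4.27) in the control and a 2.89-fold one (2.79 to 2.99) in the MYC library. Ctsb and Ctsc were 1.93-fold and 1.98-fold higher in cluster 9 of the control, whereas Ctsz was even at 333 and 334 CPM. Ctsl was higher in the MYC library in both, at 19.7 and 53.7 CPM in cluster 15 (log2 1.40) and 34.0 and 85.0 CPM in cluster 9 (log2 1.30). Ctsb was lower in both, with log2 ratios of -0.50 and -0.64. Ctsc differed in direction, at 280 and 399 CPM in cluster 15 (log2 0.51) and 553 and 502 CPM in cluster 9 (log2 -0.14), which was not tested.

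In erythroid cells Ctsb was the most abundant member of the control and differed steeply between clusters. In the control it was 82.0 CPM in cluster 17, led by Car1 and Mt2, 341 CPM in cluster 14 and 584 CPM in cluster 4, led by Tmcc2 and Xpo7, so that cluster 4 exceeded cluster 17 7.12-fold (6.35 to 8). In the MYC library these levels were 53.2, 210 and 207 CPM, and the ratio was 3.88 (3.04 to 4.94). Ctsz and Ctsl went down over the same clusters in the control, from 70.9 to 16.0 CPM and from 20.9 to 1.84 CPM, the last from 3 UMIs. Ctsb was lower in the MYC library in each of the 3 clusters, with log2 ratios of -0.61, -0.70 and -1.49. Ctsd was higher in cluster 4 of the MYC library, at 74.9 and 166 CPM (log2 1.14). The median depth of cluster 4 was 5667 UMIs for control cells against 2056 for MYC cells. How far that gap in depth moved these levels was not tested.

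**Figure D5:**
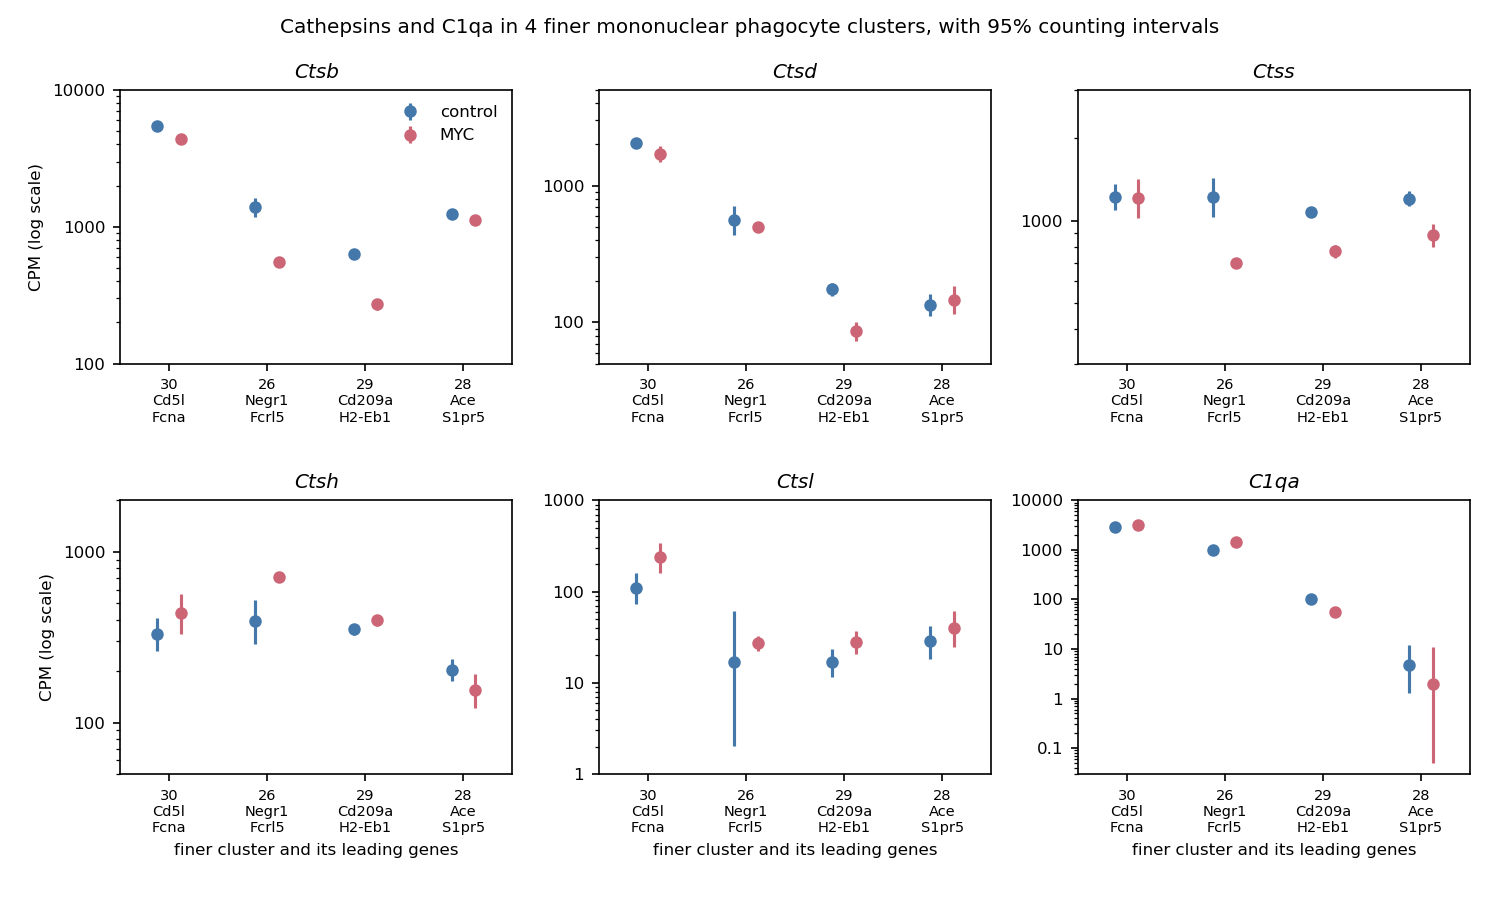
Levels in CPM (log axes) of 5 cathepsins and C1qa in 4 clusters of a finer clustering, named by number and leading genes, control in blue and MYC library in red, with 95% counting intervals. Cluster 30 lies highest for Ctsb (5445 and 4365 CPM) and Ctsd (2043 and 1699 CPM), and cluster 26, with 23 control and 634 MYC cells, is highest for Ctsh at 710 CPM in the MYC library.

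Macrophages formed a cluster that was nearly all of the MYC library, with 19 control and 635 MYC cells, so it may stand for that library and its levels were not compared between groups. It was led by Negr1, Fcrl5, C1qb and Cd300e. Its 13 macrophage markers summed to 5422 CPM in the MYC library, with 1 of them at 0, beside 997 CPM of monocyte and 789 CPM of nonclassical monocyte markers. The sum rests on 3 genes: in the MYC cells of its counterpart in a finer clustering, cluster 26, C1qa, C1qb and C1qc were at 1429, 2311 and 1401 CPM, Axl and Adgre1 at 112 and 89.3 CPM, and the other 8 markers at 0 to 30.4 CPM. Its levels in the MYC library were Ctsh 710, Ctss 701, Ctsb 552, Ctsd 496, Ctsz 482, Ctsa 331, Ctsc 122 and Ctsl 27.3 CPM. Compared with monocytes of the same library Ctsd was 3-fold (2.84 to 3.16) and Ctsh 2.44-fold (2.33 to 2.55) higher, and Ctsc was at 0.286 (0.260 to 0.314) of their level.

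A finer clustering split off a second C1q-rich population, cluster 30, with 53 control and 30 MYC cells. It was led by Cd5l, Fcna, Mrc1 and Mertk, markers of resident tissue macrophages, and in the MYC library it had 1024 CPM of Vcam1 and 1937 CPM of Cd5l, against 6.75 and 4.41 CPM in cluster 26, the counterpart of the macrophage class. Both held C1qa, at 3230 and 1429 CPM. In the MYC library Ctsb was 7.93-fold (7.20 to 8.71), Ctsl 8.73-fold (5.62 to 13.2), Ctsc 4.56-fold (3.5 to 5.87) and Ctsd 3.43-fold (2.96 to 3.95) higher in cluster 30 than in cluster 26, whereas Ctsh was lower, at 0.615 (0.462 to 0.803). In the control, from 23 cells of cluster 26, the Ctsb and Ctsd ratios were 3.93 and 3.63. Lgmn, the asparaginyl endopeptidase that processes cathepsins, was 9.48-fold higher in cluster 30 of the MYC library, and Cst3, the secreted inhibitor cystatin C, was at 0.641 of its level. With 30 cells in the MYC library, under the minimum of 50, cluster 30 was not compared between groups; its Ctsb was 5445 CPM (5162 to 5740) for control cells and 4365 CPM (4008 to 4746) for MYC cells, above that of all 16 classes in both libraries.

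Cells chosen by at least 3 UMIs of C1qa, C1qb and C1qc, whatever their cluster, gave a class that is a range and not a type. There were 97 in the control, of which 72.2% lay in cluster 12 and 11.3% in the macrophage class, and 581 in the MYC library, of which 85.7% lay in the macrophage class. In these cells Ctsb was 2370 and 618 CPM (log2 -1.94), Ctsc 447 and 138 CPM (log2 -1.69), Ctsd 927 and 478 CPM (log2 -0.95), Ctss 1066 and 652 CPM (log2 -0.71), and Ctsh 261 and 614 CPM (log2 1.23). Since the clusters that supplied them differed, a difference in which population carries C1q cannot be told apart from changes within a population.

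The difference in cluster 12 was followed in its finer parts as well. It held 191 control and 153 MYC cells of finer cluster 29, led by Cd209a and MHC class II genes, and 51 and 30 cells of cluster 30. In all cells of cluster 29, 202 and 155, Ctsb was 629 and 272 CPM (log2 -1.21), Ctsd 174 and 86.4 CPM (log2 -1.01) and Ctsc 353 and 231 CPM (log2 -0.61), so the lower levels were present without cluster 30.

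Plasma cells, the antibody-secreting end of the B lineage, had higher Ctsz at 87.9 CPM (79.9 to 96.4) and 245 CPM (223 to 270) and higher Ctss at 260 CPM (247 to 275) and 435 CPM (404 to 466), in 254 and 87 cells. The share of cells with a Ctss UMI at 2000 UMIs was 37.9% (31.7 to 44.3) and 61.0% (49.6 to 71.6), beside 0.554% and 1.07% of granulocyte progenitors, and 88.2% and 94.3% unthinned. Beside these, the summed level of the 9 monocyte markers in plasma cells was 484 and 3124 CPM, nearly all of it Ly6c2 at 333 and 3036 CPM. Of the other 8, Ms4a6c was 10.9 and 15.3 CPM and the remaining 7 were lower in the MYC library, Csf1r at 4.15 and 2.84 CPM. The 8 plasma cell markers summed to 24062 and 12939.5 CPM, most of it Jchain at 21211 and 10425 CPM. Of the other 7, Mzb1, Irf4 and Tnfrsf17 were higher in the MYC library and 4 were lower.

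Among the other genes of the lysosome, 106 genes on 9 lists, hydrolases were lower more often than higher in granulocyte progenitors, neutrophils and monocytes, but not in nonclassical monocytes. Of 31 other hydrolases tested in granulocyte progenitors 0 were called higher and 13 lower, beside 21.3% of all genes lower, with a median log2 ratio of -0.47 beside -0.25 for all genes. In monocytes the counts were 0 and 8 of 32, beside 13.2% lower (median -0.32, all genes -0.14), and in mature neutrophils 0 and 9 of 28, beside 21.6% lower (median -0.48, all genes -0.21). Immature neutrophils had 0 and 4 of 32, near the 13% of all genes lower (median -0.38, all genes -0.18). Nonclassical monocytes had 1 and 0 of 15, beside 11.1% and 12.4% (median 0.02, all genes -0.09). The sulfatase Arsb was 41.0 and 14.5 CPM in monocytes (log2 -1.44). In erythroid cells 1 was called higher and 2 lower of 30, both below the 11.7% and 12.4% of all genes.

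The inhibitors of cysteine cathepsins went the other way. Of cystatins and stefins 5 of 7 tested were called higher and 0 lower in mature neutrophils (median 0.89), 3 of 7 and 0 in immature neutrophils, and 3 of 6 and 0 in monocytes. The shares of all genes called higher in these classes were 7.28%, 6.26% and 6.25%. The 3 called in monocytes were Cstb, Stfa1 and Stfa2l1, with Stfa1 at only 0.772 and 1.67 CPM from 14 and 42 UMIs. The part of free RNA in the stefin values of monocytes was not tested. Stfa2 was 35.0 and 305 CPM (log2 3.09) and Stfa1 74.7 and 359 CPM (log2 2.25) in mature neutrophils. Stfa2l1 led cluster 2, where most mature neutrophils of the MYC library lay. Stfa genes are near-identical neighbors whose reads may be split between copies, so their single values are uncertain. Cstb, the broadly expressed stefin B, was 129 and 210 CPM in monocytes (log2 0.70), and Cst3 was 1317 and 1172 CPM there.

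Regulators and acidification genes gave the following counts. The 4 MiT transcription factors, which drive lysosomal genes, had no member called higher in any class, and 3 of 3 tested were called lower in mature neutrophils, beside 21.6% of all genes, Tfe3 at 77.6 and 41.2 CPM and Tfeb at 52.8 and 32.0 CPM. Tfe3 was also lower in monocytes, at 44.4 and 29.3 CPM. Of 15 V-ATPase genes 5 were called lower and none higher in mature neutrophils, beside 21.6% of all genes lower. In monocytes 1 was called lower and none higher, below the 13.2% of all genes lower. Over the 14 classes 0 to 2 V-ATPase genes were called higher and 0 to 5 lower. In T or NK cells 2 were higher and 0 lower of 14, beside 8.4% and 9% of all genes. In nonclassical monocytes 2 were higher and 1 lower of 11 (median 0.16), beside 11.1% and 12.4%. Of 18 membrane and lipid transfer genes in monocytes 1 was called higher (Lamtor1) and 3 lower, near the share of all genes, and Lamp1, an abundant membrane protein of lysosomes, was 616 and 506 CPM. Of 10 sorting and processing genes 3 were lower in monocytes (Sort1, Igf2r and Psap), beside 13.2% of all genes.

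MHC class II genes, whose invariant chain Ctss trims, were counted as well. In monocytes 0 were called higher and 4 lower of 7 (median -0.85), beside 13.2% of all genes lower, with H2-Aa at 34.5 and 10.3 CPM, and in nonclassical monocytes 4 of 5 were lower (median -2.10), beside 12.4%, with the invariant chain gene Cd74 at 1620.2 and 372 CPM. Lower calls were also 4 of 5 in T or NK cells, 4 of 6 in mature neutrophils and 3 of 6 in erythroid cells. The shares of all genes there were 9%, 21.6% and 12.4%. H2-Aa was 73.7 and 17.8 CPM, 24.9 and 8.34 CPM, and 18.8 and 5.81 CPM in these 3 classes. The part of free RNA in such low class II levels was not tested. Granulocyte progenitors had 3 higher and 1 lower of 6, beside 4.59% and 21.3%. Mature B cells had 2 and 0 of 7, beside 5.28% and 18.2%. In stem or multipotent progenitors 5 of 6 were called higher, beside 7.36% of all genes, H2-Aa at 23.1 and 71.3 CPM. The marker sums of that class also differed between the libraries, as given above.

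Across 28 points, each a class of 1 library with at least 50 cells, Ctsd had the pattern least like the others. On log2(CPM + 1), Pearson's r between pairs of the other 7 ran from 0.25 (Ctsc with Ctsl) to 0.82, with 0.82 for Ctsc with Ctss, 0.81 for Ctsa with Ctsc and 0.45 for Ctsb with Ctsc. For Ctsd with each of these 7 it ran from -0.21 to 0.09. Points of 1 library share that library's free RNA and depth, so these values describe the pattern only. Among 6222 genes with at least 50 CPM in a point, the pattern of Ctss was most like those of Pld4 (0.94) and Irf5 (0.92), that of Ctsa like Arhgef10l and Ms4a6c (both 0.90), and that of Ctsc like Ms4a6c and Ms4a4c (both 0.85). Ctsz was most like Fam174a (0.87), Ctsd like Selenon (0.86), Ctsh like Fgd2 (0.84), Ctsb like Cx3cr1 (0.84) and Ctsl like Lifr (0.82).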

How the data were processed

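RNA of mouse bone marrow cells was measured with 3′ droplet libraries, 1 control and 1 MYC. The deposited matrices hold whole-number UMI counts per gene and cell, which the authors made with Cell Ranger (version 6.0.0, per the headers of the deposited files); the submitters' processing notes name GRCm38 and mm10. The barcodes in the files numbered 17073 (131884603 UMIs) and 14496 (110012176 UMIs). Cells with at least 500 UMIs, 200 genes and at most 10% mitochondrial UMIs were kept, and doublets scoring above 0.2 were removed (558 control, 3.61%, and 356 MYC, 2.76%). The caller's own threshold marked 0 in the MYC library, so 0.2 was set after seeing the scores.

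Both libraries were clustered together (scanpy 1.11.5, python 3.11.15, 2000 variable genes, 30 principal components, 15 neighbours, Leiden resolution 1, igraph 0.11.9; resolution 2 for finer clusters), giving 26 clusters named from markers. Clusters with few UMIs stayed unnamed, a rule set after seeing the data. UMIs were summed per class and library. Levels have exact Poisson intervals, shares exact binomial ones and ratios exact conditional binomial ones, all 95%, made with scipy 1.17.1. They cover counting error only. Cells are not replicates, so no p-value was computed. The ratio step was checked on simulated counts. Shares of cells with a UMI were computed after thinning to 2000 UMIs, leaving out shallower cells.

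The 8 members and the lists were chosen with earlier results of these data known, and the promoter motifs after seeing the data. Of the other lists, the rule named the 3 highest and 3 lowest ratios in a class and a fixed set (Lgmn, Cst3, Cst7, Tfeb, Tfe3, Mitf, Lamp1, Elane, Prtn3, Ctsg, Cd74 and the C1q genes); Sort1, Igf2r and Psap in monocytes were named after their values were seen. Alternatives changed the clustering, the cell filters, doublet removal, the scaling, the weight of cells, the pseudocount and the UMI minimum.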

Additional observations from a re-analysis of the deposited data

Results flagged for a closer look

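Ctsc, the dipeptidyl peptidase, went in opposite directions in different classes of the MYC library: its log2 ratio to the control was 1.34 in erythroid cells, from 6.13 to 17 CPM, and -0.66 in plasmacytoid dendritic cells, from 75.5 to 47.2 CPM. Each counting interval excluded no difference (1.11 to 1.83 and -1.22 to -0.17). Both erythroid levels were below the Ctsc levels of the low-content cluster given above, as was the plasmacytoid level of the MYC library. The shares of erythroid cells with a Ctsc UMI were too low to show expression, as stated above. The part of free RNA in the erythroid difference was not tested. The difference between the classes was not tested, because there was 1 library per group. The plasmacytoid value changed sign when the libraries were clustered separately.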

How the results depend on the processing

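Over the 8 genes in 13 named classes, 20 pairs of gene and class were called higher and 10 lower. By gene, 8 to 13 of these classes had enough UMIs. By class, 4.59% to 15.8% of all genes were called higher and 9% to 21.6% lower. The lower calls numbered 6 at Leiden resolution 0.5 and the higher calls 13 with each library clustered on its own; the cause was not tested. Under the other alternatives both counts stayed within 1.5 times the 20 higher and 10 lower calls. The share of higher calls was 66.7%, 76.7% with median-of-ratios scaling, 54.2% with separate clustering and 57.1% without the 20 most abundant genes in the total. Ctsc in plasmacytoid dendritic cells reversed to a log2 ratio of 1.58 with separate clustering. Of 1012 alternative values for single genes 72 changed direction, 2 of 135 for Ctsb and 0 of 84 for Ctsl. Stem or multipotent progenitors gave no value at resolution 0.5, with separate clustering or with the deeper cell filter, which also lost megakaryocytes. Plasmacytoid dendritic cells gave none at resolution 2, and nonclassical monocytes none with the 5% mitochondrial filter or with doublets kept. No paired analysis was possible because there was 1 library per group, and no library could be left out. Depth limits Ctsl most, which had under 50 UMIs in 5 of 14 classes.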

Other observations

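Ctsk, a cathepsin best known from bone-resorbing osteoclasts, differed more than any of the 8 in the Cd209a-led cells within cluster 12. It was 92.0 CPM in the control, from 166 UMIs summed over 191 cells, and 0.590 CPM in the MYC library, from 1 UMI over 153 cells. How many of the control cells held these Ctsk UMIs was not counted, so the level need not be that of a typical cell. Acp5, the tartrate-resistant acid phosphatase, was 261 and 21.2 CPM in the same cells. The Cd5l-led cells of cluster 12 held no Ctsk UMI in either library and 178 and 294 CPM of Acp5.

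Unnamed cluster 24, 86 control and 100 MYC cells with low UMI counts and the leading genes Igfbp5, Bgn and Cxcl12, held Ctsl at 375 CPM (294 to 472) and 1203 CPM (1045 to 1377), a log2 ratio of 1.68 from 73 and 209 UMIs. Its Ctsl in the MYC library was above that of plasmacytoid dendritic cells, at 395 CPM.

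In plasma cells Ly6d was 163 and 1183 CPM, beside the differences in Ctsz and Ctss.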
